A study of Mus musculus with 60 samples.

Results

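The 10 genes described here are regulators of the G1 phase of the cell cycle and of the step from G1 into DNA synthesis: the D-type cyclins Ccnd2 and Ccnd3, the kinases Cdk4, Cdk6 and Cdk2, the E-type cyclins Ccne1 and Ccne2, the inhibitor Cdkn1b, the retinoblastoma gene Rb1 and the transcription factor E2f1. They were taken by symbol from the 55414 genes of the count table, and all 10 had a row and passed the filter on low counts in every comparison. Messenger RNA was sequenced from OT-I CD8 T cells, which carry 1 transgenic receptor for an ovalbumin peptide, isolated as naive cells from spleens of NOD mice, a diabetes-prone strain. The mice were Sh2b3-/- (knockout) or Sh2b3+/+ (wild type). Sh2b3 encodes an adaptor protein that restrains cytokine receptor signalling. The labels name no Cre and no tissue-specific promoter, so the deletion is not described as restricted to T cells.

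Each genotype gave 11 libraries of unstimulated cells (0 h), 5 libraries per time point after 2, 6 and 24 h of stimulation, and 4 libraries of cells stimulated for 24 h while IL-2 was blocked by an antibody. Stimulation used anti-CD3 bound to the plate at 10 µg/mL and anti-CD28 in solution at 5 µg/mL, and the IL-2 antibody was used at 10 µg/mL. Whether a group's libraries are separate animals, separate wells or repeat preparations is not labelled, and every p-value below reflects the library-to-library spread, which may be technical. In bulk RNA, fewer cells that express a gene and less of its RNA per cell cannot be told apart.

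Resting T cells sit outside the cycle. D-type cyclins bind CDK4 and CDK6, and these kinases begin to phosphorylate the RB1 protein, which in its unphosphorylated form holds E2F factors inactive. Released E2F1 drives transcription of the E-type cyclins and of the genes of DNA replication, cyclin E activates CDK2, and p27, the product of Cdkn1b, holds cyclin-CDK2 complexes in check. Much of this control acts on the proteins, by phosphorylation and by degradation of p27, and transcript counts do not measure it.

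Libraries held between 13987029 and 35476519 counted reads, and the lowest read number of any member in any library was 29, for Ccne2. Levels are in CPM, counts scaled to a common library size by TMM. Sh2b3 itself was at 7.57 to 31.4 CPM over all knockout libraries and at 64.6 to 171 CPM over all wild-type libraries, so every library matched its genotype label. T cell markers (Cd3d, Cd3e, Cd3g, Cd8a, Cd8b1, Trac, Cd2 and Thy1) summed to 5885 to 7023 CPM in knockout and 5791 to 6818 CPM in wild type at 0 h. B cell markers summed there to 21.6 to 53.0 CPM in knockout and 22.5 to 39.4 CPM in wild type. The library numbers fall into 4 runs, here called sets A to D, whose meaning the labels do not give. Set A is made of the 2 and 6 h libraries with 5 unstimulated ones per genotype. Per genotype, set B has 2 unstimulated libraries with 2 from 24 h, and set C has 4 unstimulated libraries with 3 from 24 h. The anti-IL-2 libraries alone make up set D. Some knockout libraries stood apart in Ccne1 and Ccnd2: replicate 10 at 0 h, with the lowest Ccne1 (13.6 CPM) and Ccnd2 (309 CPM) of its group, and replicate 3 at 6 h, with the lowest Ccne1 (3.84 CPM) and the highest Ccnd2 (806 CPM) of its group. Knockout time comparisons are also given without 3 libraries, these and replicate 3 at 2 h. The choice was made after the data were seen and taken over from earlier processing of these libraries. The 3 are number partners: the library numbers at 2 and 6 h lie 10 and 20 from that at 0 h. Their deviations from group and set means correlated at 0.591 (0 and 2 h), 0.749 (2 and 6 h) and 0.456 (0 and 6 h), over genes averaging 4 CPM or more. Replicate 3 at 2 h did not stand apart in Ccne1: its level, 5.91 CPM, was the lowest of its group and lay next to 7.10 CPM, while replicate 5 had 13.4 CPM. Cdk6 (ENSMUSG00000040274) lies on chromosome 5, Ccnd2 and Cdkn1b on 6, Ccnd3 on 17, Ccne1 on 7, Ccne2 on 4, Cdk2 and Cdk4 on 10, E2f1 on 2 and Rb1 on 14.

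Per kilobase of annotated exon, the inhibitor and the D cyclin Ccnd2 led the set in unstimulated cells. Cdkn1b stood at 47.3 ± 5.29 RPKM (SD) in knockout and 50.7 ± 3.60 RPKM in wild type, and Ccnd2 at 51.97 ± 9.45 RPKM in knockout and 49.8 ± 6.56 RPKM in wild type. The libraries of these genes overlapped, so their order is not resolved. Cdk4 followed at 35.8 ± 3.45 RPKM in knockout and 34.1 ± 3.18 RPKM in wild type, then Ccnd3 at 21.7 ± 2.59 RPKM in knockout and 21.6 ± 3.36 RPKM in wild type. The libraries of Cdk4 and Ccnd3 did not overlap. Ccne1, Rb1, Cdk2 and Cdk6 lay between 5.15 and 9.64 RPKM as group means, each overlapping its neighbour in the order, while Ccnd3 lay above Ccne1 and Cdk6 above E2f1 without overlap in both genotypes. E2f1 (1.83 ± 0.706 RPKM in knockout, 1.45 ± 0.386 in wild type) and Ccne2 (0.847 ± 0.238 RPKM in knockout, 0.820 ± 0.150 in wild type) came last. Ccnd1, the D cyclin outside the set, was named after its values were seen: its group means stayed between 0.216 and 1.56 CPM in all 10 groups.

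After stimulation many members first fell and then rose. At 2 h Ccnd3, Ccne1, Cdk4 and Cdk6 were lower than at 0 h in both genotypes and Ccnd2 in wild type, while Rb1, Cdkn1b and Cdk2 were higher in both and Ccne2 in wild type. At 6 h Ccnd3 and Ccne1 were still low in both genotypes. At 24 h E2f1, Ccne2, Ccne1, Cdk4, Cdk2 and Cdk6 were all above 0 h in both genotypes. Each time was tested against 0 h in an edgeR quasi-likelihood fit of 1 genotype with the library set as a term, with p-values adjusted over all genes by Benjamini-Hochberg and a call at an adjusted p under 0.05. The times share the 0 h libraries.

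Counts of members called are given beside the share of all genes called. The members are only 10 chosen genes, and the shares were not tested against each other, so no excess or lack is read from them. At 2 h 7 of 10 were called in knockout (3 higher, 4 lower) beside 48.4% of all genes tested (23.9% higher, 24.5% lower). In wild type 9 of 10 were called (4 higher, 5 lower) beside 53.6% (26.4% higher, 27.2% lower). At 6 h the counts were 3 of 10 in knockout (1 higher, 2 lower) beside 42.6% (22.8% higher, 19.8% lower) and 5 of 10 in wild type (3 higher, 2 lower) beside 49.0% (24.9% higher, 24.1% lower). At 24 h 7 of 10 were higher in knockout and 0 lower, beside 30.1% higher and 29.8% lower (60.0% called in all). In wild type 6 were higher and 2 lower, beside 27.8% higher and 31.6% lower (59.4% called in all). Without those 3 knockout libraries, 8 members were called in knockout at 2 h, 3 at 6 h and 7 at 24 h. Of all genes, 44.5%, 37.9% and 60.8% were called in these fits. The groups did not overlap at all for 3 higher and 4 lower members at 2 h in knockout, as for 22.7% and 18.5% of genes of at least 4 CPM, and for 2 higher and 4 lower in wild type, as for 25.6% and 20.8%. At 24 h 6 members in knockout (22.3% of genes) and 5 in wild type (20.4%) lay wholly above 0 h. At 6 h 2 lay wholly below it in knockout (13.7%) and in wild type (19.7%), and 1 wholly above it in wild type (19.9%). The median difference of the members at 24 h was 1.35 log2 units in knockout and 0.71 in wild type, against −0.05 in knockout and −0.09 in wild type over all genes tested.

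**Figure D1:**
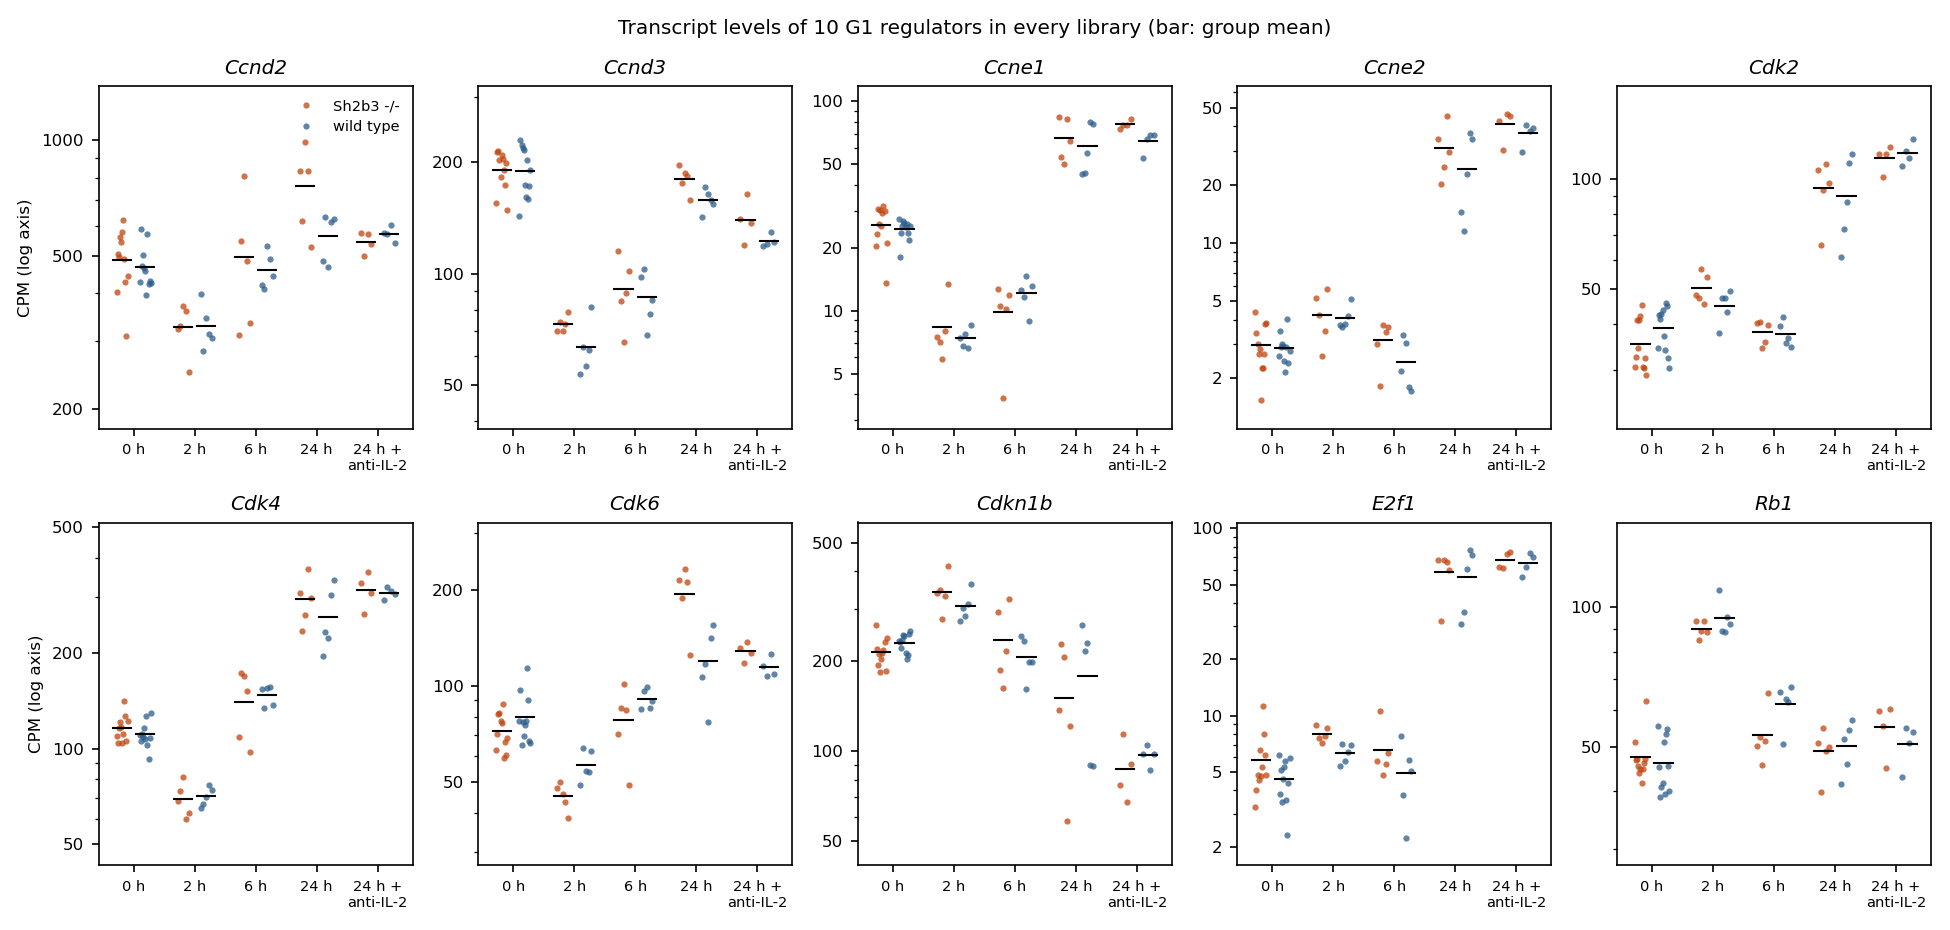
Level of each member in every library (CPM, log axis) by time, last with the IL-2 antibody, with knockout (Sh2b3 -/-) left of wild type; points are libraries and bars are group means. Ccnd3 and Ccne1 dip at 2 and 6 h in both genotypes, Rb1 peaks at 2 h, and E2f1 and Ccne2 lie far above all earlier libraries at 24 h.

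The D-type cyclins, which respond to growth signals and start the sequence, followed different courses. Ccnd3 in knockout libraries ran from 149 through a median of 199 to 214 CPM at 0 h, stood at 70.0, 70.2, 73.2, 74.0 and 79.1 CPM at 2 h, at 65.6, 84.3, 88.7, 102 and 115 CPM at 6 h, and at 158, 176, 184, 187 and 196 CPM at 24 h. In wild type it ran from 144 through a median of 190.2 to 229 CPM at 0 h, with 53.6, 56.3, 62.4, 63.4 and 81.2 CPM at 2 h, 68.3, 77.9, 84.9, 98.3 and 103 CPM at 6 h, then 142, 154, 159, 164 and 171 CPM at 24 h. Every library at 2 and 6 h lay below every 0 h library of its genotype, and by 24 h the ranges overlapped again. Ccnd3 fell at 2 h, with a log2 difference from 0 h of −1.25 ± 0.11 (SE, adjusted p = 2.77e-10) in knockout and −1.42 ± 0.11 (adjusted p = 3.33e-13) in wild type. At 6 h the differences were −0.89 ± 0.11 (adjusted p = 2.10e-07) in knockout and −0.93 ± 0.11 (adjusted p = 4.80e-09) in wild type. At 24 h Ccnd3 was still lower in wild type (−0.38 ± 0.10, adjusted p = 0.00181), a call not made within set B alone (−0.13). In knockout it differed from 0 h by −0.10 ± 0.10 (adjusted p = 0.429).

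Ccnd2 moved less. Its knockout means were 489 ± 88.9, 326 ± 47.8, 497 ± 199 and 759.8 ± 185 CPM (SD) at 0, 2, 6 and 24 h, and its wild-type means 469 ± 61.7, 329 ± 44.9, 459 ± 51.3 and 565 ± 81.0 CPM. The fall at 2 h was −0.39 ± 0.10 log2 units (adjusted p = 0.00194) in wild type. In knockout it was −0.36 ± 0.20 (adjusted p = 0.145), and −0.49 (adjusted p = 0.0216) without those 3 knockout libraries. Among those left out are the lowest Ccnd2 level at 0 h (309 CPM) and the highest at 2 h (372 CPM). Their removal by itself enlarges the fall, so the second value is not separate support for it. At 24 h Ccnd2 rose in knockout by 0.54 ± 0.19 (adjusted p = 0.0153). That call was lost without knockout replicate 3 at 24 h (0.43, adjusted p = 0.0663), within set B alone (0.28) and with no filter on low counts (0.53). In wild type the 24 h difference was 0.16 ± 0.10 (adjusted p = 0.178), and within set B alone 0.40 (adjusted p = 0.0142). Per kilobase, Ccnd2 exceeded Ccnd3 in every library: the ratio averaged 2.41 ± 0.392, 4.18 ± 0.761, 5.64 ± 3.56 and 3.90 ± 0.737 (SD) in knockout at 0, 2, 6 and 24 h. In wild type at these times they were 2.33 ± 0.256, 5.00 ± 1.35, 5.14 ± 1.46 and 3.33 ± 0.442. Knockout replicate 3 at 6 h had the highest ratio, 11.5.

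The partners of the D cyclins, Cdk4 and Cdk6, both dipped at 2 h and were above 0 h at 24 h. Their promoters are shown because their windows hold different numbers of the hexamer CACGTG, the E-box that MYC binds. The window of Cdk2 is shown as the only one of the members' windows with an E2F word. In wild type the rises of Cdk4 and Cdk6 at 24 h were unequal (1.25 and 0.44 log2 units). In knockout they were closer (1.46 and 1.37), and a link between these words and the levels was not tested. Of the 10 members 7 had a RefSeq promoter window of 250 bases before the start, and Ccnd2, Ccne2 and Rb1 had none. Cdk4 (GRCm38.p6, chr10:127063285-127063534, plus strand) held 4 CACGTG words, in capitals, which begin 172, 118, 98 and 11 bases before the start. Cdk6 (chr5:3343643-3343892, plus strand) held 1, which begins 220 bases before it. The word, a palindrome that reads the same on both strands, stands in 6.02% of the 32851 mouse promoter windows, and 7 windows, 0.021%, hold 4 or more. In Cdk2 (chr10:128705052-128705301, minus strand) the capitals mark TTTCCCGC on the opposite strand, 1 of 4 E2F words searched on both strands (TTTCCCGC, TTTCGCGC, TTTGCCGC and TTTGGCGC). At least 1 of these words stands in 1.86% of windows and in 1 of the 7 members' windows. A match describes letters only. Whether the RefSeq starts, that of E2f1 among them, are the starts used in these cells was not tested. A window without a word therefore does not show that the promoter of its gene lacks it.
Cdk4: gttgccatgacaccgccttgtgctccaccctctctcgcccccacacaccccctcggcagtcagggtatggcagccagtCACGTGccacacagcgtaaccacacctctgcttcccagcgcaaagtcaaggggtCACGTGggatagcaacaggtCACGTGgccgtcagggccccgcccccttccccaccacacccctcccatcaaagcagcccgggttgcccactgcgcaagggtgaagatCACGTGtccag
Cdk6: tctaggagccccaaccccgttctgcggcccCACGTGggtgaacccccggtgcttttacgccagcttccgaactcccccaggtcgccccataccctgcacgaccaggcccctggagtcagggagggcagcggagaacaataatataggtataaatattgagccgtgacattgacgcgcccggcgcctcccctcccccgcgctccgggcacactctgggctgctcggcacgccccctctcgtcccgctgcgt
Cdk2: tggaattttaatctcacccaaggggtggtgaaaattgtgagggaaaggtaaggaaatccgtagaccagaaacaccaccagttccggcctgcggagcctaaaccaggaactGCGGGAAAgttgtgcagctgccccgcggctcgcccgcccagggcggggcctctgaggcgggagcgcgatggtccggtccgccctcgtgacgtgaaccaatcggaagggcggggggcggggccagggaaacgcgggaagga

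Cdk4, the gene of a kinase that D cyclins activate, had 116 ± 11.2, 69.2 ± 8.52, 140.2 ± 34.9 and 295 ± 50.6 CPM (SD) in knockout at 0, 2, 6 and 24 h. In wild type it had 111 ± 10.3, 70.7 ± 4.80, 147 ± 10.8 and 259 ± 60.6 CPM. Every 2 h library lay below and every 24 h library above all 0 h libraries of its genotype. The differences from 0 h in knockout were −0.82 ± 0.14 log2 units at 2 h (SE, adjusted p = 1.68e-05), 0.26 ± 0.14 at 6 h (adjusted p = 0.135) and 1.46 ± 0.13 at 24 h (adjusted p = 3.45e-10). In wild type they were −0.73 ± 0.10 (adjusted p = 2.52e-07), 0.37 ± 0.10 (adjusted p = 0.00278) and 1.25 ± 0.10 (adjusted p = 4.83e-13). The 6 h value in knockout passed without knockout replicate 1 (0.34, adjusted p = 0.0496) or replicate 5 (0.37, adjusted p = 0.0239) of that group, and with no library set term (0.30, adjusted p = 0.0305). Of the exonic bases of Cdk4, 19.7% are shared with Tspan31 on the opposite strand, and the sources used here do not say whether counting used strand.

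Cdk6, the second D-cyclin kinase, was the member with the largest estimated difference between genotypes at 24 h. Knockout libraries ran from 59.2 through a median of 70.6 to 87.6 CPM at 0 h and stood at 38.3, 43.2, 45.7, 47.9 and 49.9 CPM at 2 h, 48.9, 70.6, 83.8, 85.0 and 101 CPM at 6 h, then 124, 188, 211, 215 and 232 CPM at 24 h. Wild-type libraries ran from 65.4 through a median of 77.1 to 114 CPM at 0 h and stood at 48.8, 53.5, 54.1, 62.6 and 63.6 CPM at 2 h, 84.5, 85.1, 89.3, 96.2 and 99.0 CPM at 6 h, then 76.7, 106, 117, 141 and 155 CPM at 24 h. All knockout libraries at 24 h lay above all knockout libraries at 0 h, whereas in wild type the ranges of these times overlapped. In knockout the log2 differences from 0 h were −0.51 ± 0.15 at 2 h (adjusted p = 0.00475), 0.34 ± 0.14 at 6 h (adjusted p = 0.0619) and 1.37 ± 0.14 at 24 h (adjusted p = 2.12e-09). In wild type the differences at these times were −0.37 ± 0.11 (adjusted p = 0.00448), 0.35 ± 0.11 (adjusted p = 0.00754) and 0.44 ± 0.10 (adjusted p = 0.000440). The 6 h value in knockout passed without knockout replicate 5 at 6 h (0.47, adjusted p = 0.00390) or at 24 h (0.34, adjusted p = 0.0310), and that in wild type was lost with no library set term (0.20, adjusted p = 0.215).

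The E-type cyclins, which activate CDK2 at the end of G1, began at unequal levels and moved unequally. Ccne1 in knockout ran from 13.6 through a median of 25.97 to 31.8 CPM at 0 h and stood at 5.91, 7.10, 7.49, 7.99 and 13.4 CPM at 2 h, 3.84, 10.3, 10.5, 11.9 and 12.7 CPM at 6 h, then 50.1, 54.5, 64.6, 82.5 and 84.6 CPM at 24 h. In wild type it ran from 18.02 through a median of 25.4 to 27.5 CPM at 0 h and stood at 6.64, 6.76, 7.40, 7.75 and 8.54 CPM at 2 h, 8.91, 11.6, 12.5, 13.1 and 14.7 CPM at 6 h, then 45.2, 45.6, 56.9, 77.9 and 80.2 CPM at 24 h. No stimulated library of either genotype reached into the 0 h range: all were below it at 2 and 6 h and above it at 24 h. The fall at 2 h was −1.48 ± 0.26 (adjusted p = 3.75e-05) in knockout and −1.78 ± 0.14 (adjusted p = 1.17e-12) in wild type, the lowest value of any member in each genotype at this time. At 6 h it was −1.20 ± 0.26 (adjusted p = 0.000495) in knockout and −1.03 ± 0.14 (adjusted p = 9.98e-08) in wild type. The rise at 24 h was 1.36 ± 0.24 (adjusted p = 2.27e-05) in knockout and 1.29 ± 0.13 (adjusted p = 9.24e-11) in wild type.

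Ccne2 had the lowest mean of the members at 0 h and was called lower than 0 h at no time. Its means were 2.96 ± 0.831, 4.25 ± 1.26, 3.13 ± 0.793 and 30.8 ± 9.65 CPM in knockout at 0, 2, 6 and 24 h, and 2.87 ± 0.525, 4.10 ± 0.610, 2.41 ± 0.739 and 24.0 ± 11.5 CPM in wild type. At 24 h knockout libraries had 20.2, 24.6, 29.5, 34.6 and 45.1 CPM and wild-type libraries 11.6, 14.5, 22.6, 34.5 and 37.0 CPM, each above every library of 0, 2 and 6 h. The rise was 3.66 ± 0.27 log2 units (adjusted p = 6.99e-12) in knockout and 2.76 ± 0.22 (adjusted p = 4.03e-13) in wild type. At 2 h the difference was 0.32 ± 0.27 (adjusted p = 0.340) in knockout and 0.72 ± 0.23 (adjusted p = 0.00868) in wild type, and the wild-type call was lost with no library set term (0.49, adjusted p = 0.0693). Per kilobase the ratio of Ccne2 to Ccne1 was 0.347 ± 0.0523 at 24 h and 0.0976 ± 0.0531 at 0 h in knockout, and 0.286 ± 0.0662 at 24 h and 0.0910 ± 0.0255 at 0 h in wild type. Ccne1 was the more abundant of the pair per kilobase in every library of every group. Ints8, on the opposite strand, shares 17.4% of the exonic bases of Ccne2.

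Cdk2, the partner of the E cyclins, was higher at 2 h and higher still at 24 h. Its means were 35.4 ± 5.80, 50.2 ± 4.81, 38.1 ± 2.88 and 94.4 ± 17.4 CPM in knockout at 0, 2, 6 and 24 h, and 38.98 ± 5.52, 44.9 ± 4.55, 37.6 ± 3.01 and 89.6 ± 23.9 CPM in wild type. The knockout differences from 0 h were 0.70 ± 0.11 (adjusted p = 3.52e-06), 0.36 ± 0.11 (adjusted p = 0.00758) and 1.33 ± 0.10 (adjusted p = 1.50e-11) at 2, 6 and 24 h. Wild type gave 0.41 ± 0.10 (adjusted p = 0.00116), 0.19 ± 0.10 (adjusted p = 0.135) and 0.99 ± 0.10 (adjusted p = 1.39e-10). With no library set term the knockout call at 6 h (0.14) and the wild-type call at 2 h (0.17) were lost. At 0 h Cdk2 was at 29.0 to 32.3 CPM in set A and at 42.1 to 45.2 CPM in set B of the knockout.

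Cdkn1b, the gene of the CDK inhibitor p27, rose at 2 h and was low in some 24 h libraries. It had 215 ± 24.1, 342 ± 50.1, 237 ± 68.9 and 150.4 ± 68.8 CPM in knockout at 0, 2, 6 and 24 h, and 231 ± 16.4, 306 ± 35.2, 207 ± 32.5 and 178 ± 82.9 CPM in wild type. All 2 h libraries were above all 0 h libraries of their genotype. At 24 h the libraries ran from 58.1 to 229 CPM in knockout and from 89.3 to 265 CPM in wild type. The rise at 2 h was 0.58 ± 0.21 (adjusted p = 0.0269) in knockout and 0.36 ± 0.14 (adjusted p = 0.0389) in wild type. It lost its call without knockout replicate 5 at 2 h (0.49, adjusted p = 0.0755), with no filter on low counts in knockout (0.59), and without wild-type replicate 2, 4 or 5 at 2 h (0.37, 0.35 and 0.29). At 24 h the difference was −0.42 ± 0.21 (adjusted p = 0.0809) in knockout and −0.42 ± 0.14 (adjusted p = 0.0117) in wild type. The wild-type fall was not found within set C alone, where the difference was 0.05 (adjusted p = 0.656). Without wild-type replicate 4 or 5, the set B libraries at 24 h, it was −0.29 in each case (adjusted p = 0.0686 and 0.0722). With no library set term it was uncalled as well (−0.37, adjusted p = 0.0631). In knockout the difference passed within set B alone (−1.12, adjusted p = 0.0131), with DESeq2 (−0.44, adjusted p = 0.0434), and without knockout replicate 2 (−0.57, adjusted p = 0.0236) or 3 (−0.51, adjusted p = 0.0480) at 24 h.

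**Figure D2:**
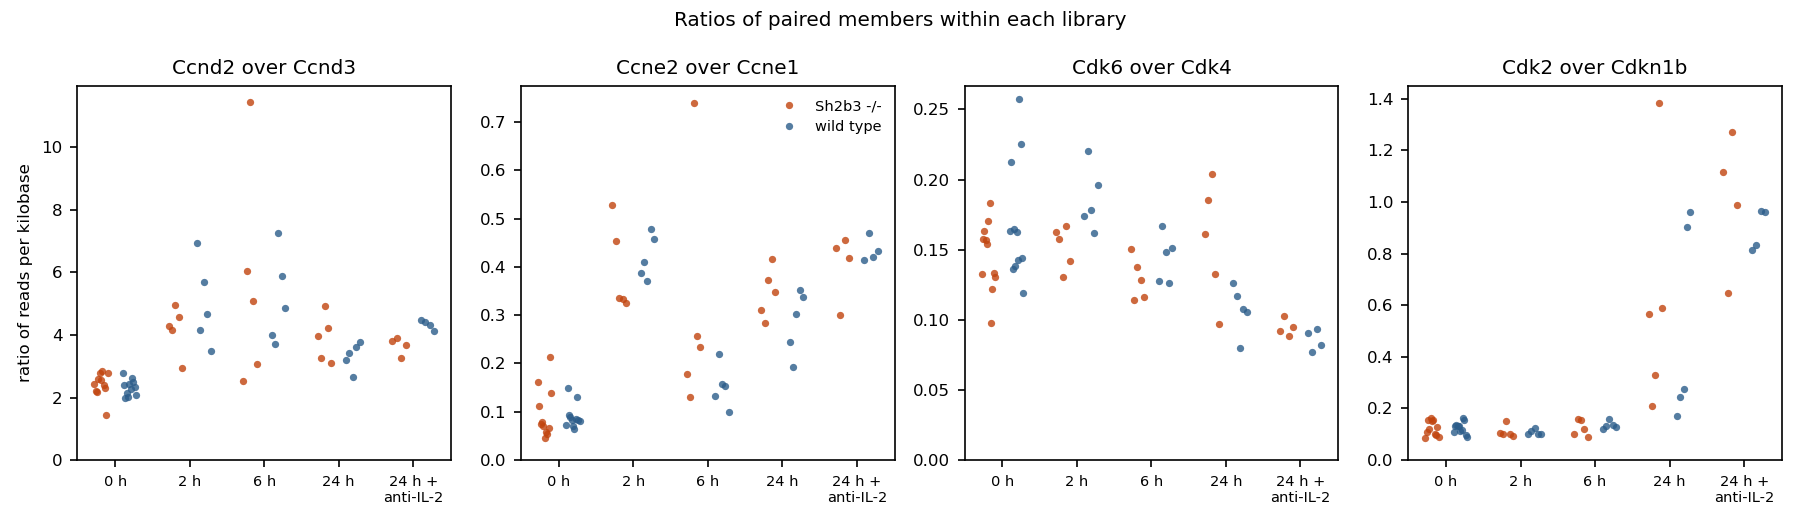
Ratios of reads per kilobase between paired members within each library (linear axis from 0), knockout left of wild type in each condition, 1 point per library. Ccnd2 exceeds Ccnd3 in all libraries, Ccne2 stays below Ccne1, and Cdk2 over Cdkn1b is highest in 24 h libraries.

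Rb1, the brake on E2F, rose early. Knockout libraries ran from 41.7 through a median of 46.0 to 62.7 CPM at 0 h, and stood at 85.0, 88.4, 89.1, 93.3 and 93.6 CPM at 2 h, then 45.7, 50.1, 51.4, 52.5 and 65.3 CPM at 6 h. Wild-type libraries ran from 38.8 through a median of 45.2 to 55.4 CPM at 0 h, and stood at 88.4, 88.8, 91.9, 95.1 and 109 CPM at 2 h, then 50.7, 62.5, 63.4, 65.7 and 67.4 CPM at 6 h. Every 2 h library lay above every 0 h library, and the means at 24 h were 48.9 ± 5.50 CPM in knockout and 50.1 ± 6.36 CPM in wild type. The rise at 2 h was 0.82 ± 0.10 (adjusted p = 1.84e-07) in knockout and 1.02 ± 0.10 (adjusted p = 5.73e-11) in wild type. At 6 h the difference was 0.12 ± 0.10 (adjusted p = 0.398) in knockout and 0.45 ± 0.10 (adjusted p = 0.000221) in wild type. At 24 h it was 0.21 ± 0.10 (adjusted p = 0.0758) in knockout, called at 0.29 (adjusted p = 0.0137) without knockout replicate 2 of that time, and 0.12 ± 0.09 (adjusted p = 0.291) in wild type. Rcbtb2 and Lpar6, on the opposite strand, share 14.9% of the exonic bases of Rb1.

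E2f1, the activator that RB1 holds back, had 0 early calls and then rose at 24 h to 10.1 times its 0 h mean in knockout and 12.1 times in wild type. Its means were 5.78 ± 2.23, 8.01 ± 0.727 and 6.60 ± 2.31 CPM in knockout at 0, 2 and 6 h, and 4.58 ± 1.22, 6.30 ± 0.748 and 4.93 ± 2.08 CPM in wild type, with 0 of the 4 differences from 0 h called by edgeR or DESeq2 and 0 at an unadjusted p under 0.05. At 24 h knockout libraries had 31.9, 59.9, 66.0, 67.6 and 67.7 CPM and wild-type libraries 30.7, 35.7, 60.6, 72.0 and 76.8 CPM. The rise was 3.62 ± 0.25 log2 units (adjusted p = 2.71e-12) in knockout and 3.79 ± 0.25 (adjusted p = 3.38e-14) in wild type. A list of 30 E2F target genes of DNA replication, chosen like the members with earlier results of these data known, rose as a whole at 24 h. All 30 were higher in both genotypes, beside 30.1% of all genes in knockout and 27.8% in wild type, with a median of 2.89 log2 units in knockout and 2.52 in wild type, against −0.05 in knockout and −0.09 in wild type over all genes. At 2 h 4 were higher and 7 lower in knockout, beside 23.9% and 24.5% of all genes. In wild type 5 were higher and 7 lower at 2 h, beside 26.4% and 27.2%. At 6 h 3 were higher and 5 lower in knockout, beside 22.8% and 19.8% of all genes, and 4 higher and 2 lower in wild type, beside 24.9% and 24.1%, with a median of −0.07 in knockout and −0.10 in wild type. The summed level of the list was 3819 to 7442 CPM in knockout and 3727 to 7000.2 CPM in wild type at 24 h, against 1073 to 1362 CPM in knockout and 1061 to 1210.2 CPM in wild type at 0 h.

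**Figure D3:**
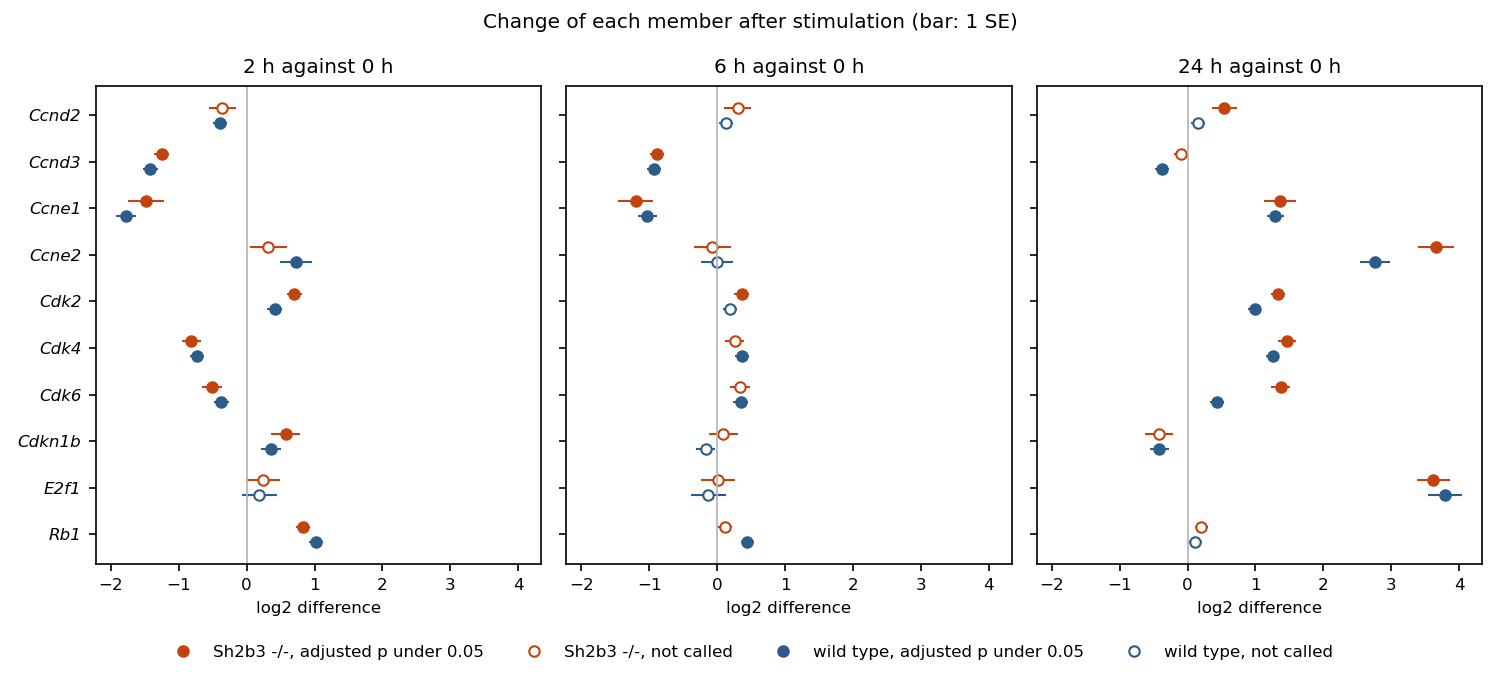
Log2 difference from 0 h of each member at 2, 6 and 24 h in knockout (upper symbol of each pair) and wild type (lower), with 1 SE; filled symbols passed an adjusted p of 0.05. At 24 h E2f1 and Ccne2 stand between 2.76 and 3.79 log2 units and Cdk6 is at 1.37 in knockout and 0.44 in wild type.

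Between 6 and 24 h, 7 members rose in knockout and 6 in wild type, with 0 falling in either. Of all genes 17.0% were higher and 16.2% lower in knockout (33.2% called), and 14.8% higher and 17.5% lower in wild type (32.3% called). The knockout count was 7 also without those 3 knockout libraries, beside 35.3% of all genes. Ccnd3, Ccne1, Ccne2, Cdk2, Cdk4 and E2f1 rose in both genotypes. Cdk6 was the seventh in knockout, at 1.03 ± 0.20 (adjusted p = 0.000253), and was at 0.09 ± 0.15 (adjusted p = 0.697) in wild type. With no library set term Cdk6 passed in wild type too (0.41, adjusted p = 0.0317), and Ccnd2 passed in knockout (0.67, adjusted p = 0.0106) and wild type (0.31, adjusted p = 0.0353). Cdkn1b fell in knockout with no set term (−0.60, adjusted p = 0.0289). The 6 and 24 h libraries share no set. Rb1 in wild type (−0.33 ± 0.13, adjusted p = 0.0570) passed without wild-type replicate 2 of 6 h (−0.36, adjusted p = 0.0323) or of 24 h (−0.39, adjusted p = 0.0258).

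Other genes of the pathway, 45 with a row, 43 of them tested over time, were described by the same tests, and the 4 called genes with the smallest adjusted p in each comparison are named with their log2 difference and SE. Their median difference was 0.21, 0.18 and 0.63 log2 units in knockout at 2, 6 and 24 h and 0.13, 0.21 and 0.49 in wild type, against −0.08, 0.01 and −0.05 in knockout and −0.05, −0.01 and −0.09 in wild type over all genes. At 2 h 16 were higher and 7 lower in knockout, beside 23.9% and 24.5% of all genes, and 17 higher and 12 lower in wild type, beside 26.4% and 27.2%. In knockout those named are Cables1, a CDK-binding protein (4.66 ± 0.63), Tfdp2, a dimer partner of E2F (0.99 ± 0.14), Foxo1, a quiescence factor (−0.72 ± 0.11), and Cks2, a CDK subunit (1.32 ± 0.22). In wild type they were Myc (1.12 ± 0.11), the inhibitor Cdkn2d (−1.01 ± 0.10), Ccng2 (1.13 ± 0.12) and the activator E2f2 (−2.28 ± 0.24). At 6 h 15 were higher and 4 lower in knockout, beside 22.8% and 19.8%, and 17 higher and 7 lower in wild type, beside 24.9% and 24.1%. In knockout the leading genes were Foxo1 (−1.22 ± 0.11), Cdkn2d (−2.10 ± 0.19), Ccng1 (1.14 ± 0.12) and Cables1 (4.58 ± 0.63), and in wild type Cdkn2d (−2.22 ± 0.11), Ccng1 (1.41 ± 0.09), the p21 gene Cdkn1a (5.29 ± 0.34) and Foxo1 (−1.19 ± 0.10). At 24 h 28 were higher and 4 lower in knockout, beside 30.1% and 29.8%, and 27 higher and 4 lower in wild type, beside 27.8% and 31.6%. The leading genes were the phosphatase gene Cdc25a (1.83 ± 0.13), Mybl2 (4.13 ± 0.28), the E2F partner Tfdp1 (2.67 ± 0.18) and the S phase cyclin Ccna2 (5.28 ± 0.35) in knockout, and Tfdp1 (2.32 ± 0.10), Cdkn2d (−1.75 ± 0.10), Cks1b (3.28 ± 0.21) and E2f8 (4.88 ± 0.35) in wild type.

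Over the 10 group means of log2 CPM, members differed in which genes their course most resembled, among 9299 genes averaging 4 CPM or more. For E2f1 these were Lig1, Asf1b and Cdc45 (Pearson r from 0.997 to 0.998), and for Ccne2 Rfc3, Mcm3 and Zfp367 (r = 0.997 each). Cdk2 was nearest to Mcm4, Tonsl and Pcna (0.989 to 0.991), and Cdk4 to Aprt, Galk1 and Pold2 (0.992 to 0.993). Ccne1 was nearest to Cbx3, Bckdk and Suclg1 (0.990 to 0.993), and Cdkn1b to Rabac1, Tdrp and Tprgl (0.996 to 0.997). Lower values belonged to Ccnd2 (Snrpd3, Tmem164 and Thap1, 0.973 to 0.976), Ccnd3 (Gstp1, Znhit2 and Sh3bp1, 0.973 to 0.979), Cdk6 (Cndp2, Prmt7 and Dus1l, 0.967 to 0.980) and Rb1 (Tent4a, Scyl2 and Prpf6, 0.976 to 0.982). Among the members themselves r was highest between Ccne2 and E2f1 (0.994) and lowest between Cdk4 and Cdkn1b (−0.950). These are descriptions over 10 means, 4 of which are from 24 h.

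The comparison of genotypes asks what the loss of Sh2b3 changes. In single conditions no difference passed: edgeR called 0 of 10 in each of the 5 conditions. Of all genes 0.633% were called at 0 h (0.328% higher, 0.305% lower), 0.0647% at 2 h, 0.0306% at 6 h, 0.372% at 24 h and 0.350% at 24 h with the antibody. At an unadjusted p under 0.05 the counts in this order were 3, 2, 1, 3 and 3 members. The share of all genes at this unadjusted p was not computed, here or below, so such counts have no background. DESeq2 called 1 member at 24 h, beside 1.80% of all genes, and 0 elsewhere. Of the E2F target list and the other genes of the pathway, edgeR called 0 in these 5 comparisons too. These comparisons and those over time share libraries.

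At 0 h the largest difference was that of E2f1, at 0.35 ± 0.17 log2 units (SE, adjusted p = 0.444). E2f1 ran from 3.26 through a median of 4.85 to 11.3 CPM in knockout and from 2.30 through a median of 4.58 to 6.17 CPM in wild type. The 6 markers of dividing cells (Mki67, Top2a, Ccnb1, Cdk1, Bub1 and Cenpe) had estimates above 0 as well, with a median of 0.59, 0 called and 4 at an unadjusted p under 0.05. They summed to 22.6 to 112 CPM in knockout and 30.2 to 79.4 CPM in wild type, and their part in the E2f1 difference was not tested. Cdk2 was at −0.14 ± 0.05 (adjusted p = 0.285) and Cdk6 at −0.14 ± 0.06 (adjusted p = 0.396), and the other 7 lay between −0.10 (Cdkn1b) and 0.07 (Cdk4). At 2 h E2f1 had 7.18, 7.62, 7.74, 8.55 and 8.96 CPM in knockout and 5.37, 5.70, 6.38, 6.99 and 7.03 CPM in wild type. All knockout libraries were above all wild-type ones, as for 1.45% of genes with 4 CPM or more in either genotype, with a difference of 0.34 ± 0.15 (adjusted p = 0.362). Cdk6 was −0.33 ± 0.09 at 2 h (adjusted p = 0.209), with 1 wild-type library inside the knockout range. At 6 h the knockout libraries spread widely, and differences ran from −0.32 ± 0.26 for Ccne1 to 0.40 ± 0.32 for E2f1 (adjusted p = 0.952 and 0.952).

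At 24 h 8 of the 10 estimates were above 0, led by Cdk6, Ccne2 and Ccnd2. Cdk6 had 194 ± 41.9 CPM (SD) in knockout and 119 ± 30.5 CPM in wild type, and 4 of the 5 knockout libraries lay above all wild-type ones. The difference was 0.71 ± 0.18 log2 units (adjusted p = 0.124). Ccnd2 had 528, 617, 833, 834 and 989 CPM in knockout and 467, 486, 615, 624 and 631 CPM in wild type, a difference of 0.42 ± 0.15 (adjusted p = 0.290), and Ccne2 differed by 0.43 ± 0.21 (adjusted p = 0.433). The comparison turned on knockout replicate 5, a set B library with 124 CPM of Cdk6. Without it Cdk6 was at 0.90 (adjusted p = 0.00249) and Ccnd2 at 0.55 (adjusted p = 0.0300), and leaving out any other library of the comparison made 0 calls among the members. DESeq2 called Cdk6 with all libraries (adjusted p = 0.00717). Within set C the Cdk6 difference was 1.07 (adjusted p = 0.00611) and within set B 0.17 (adjusted p = 0.9999).

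**Figure D4:**
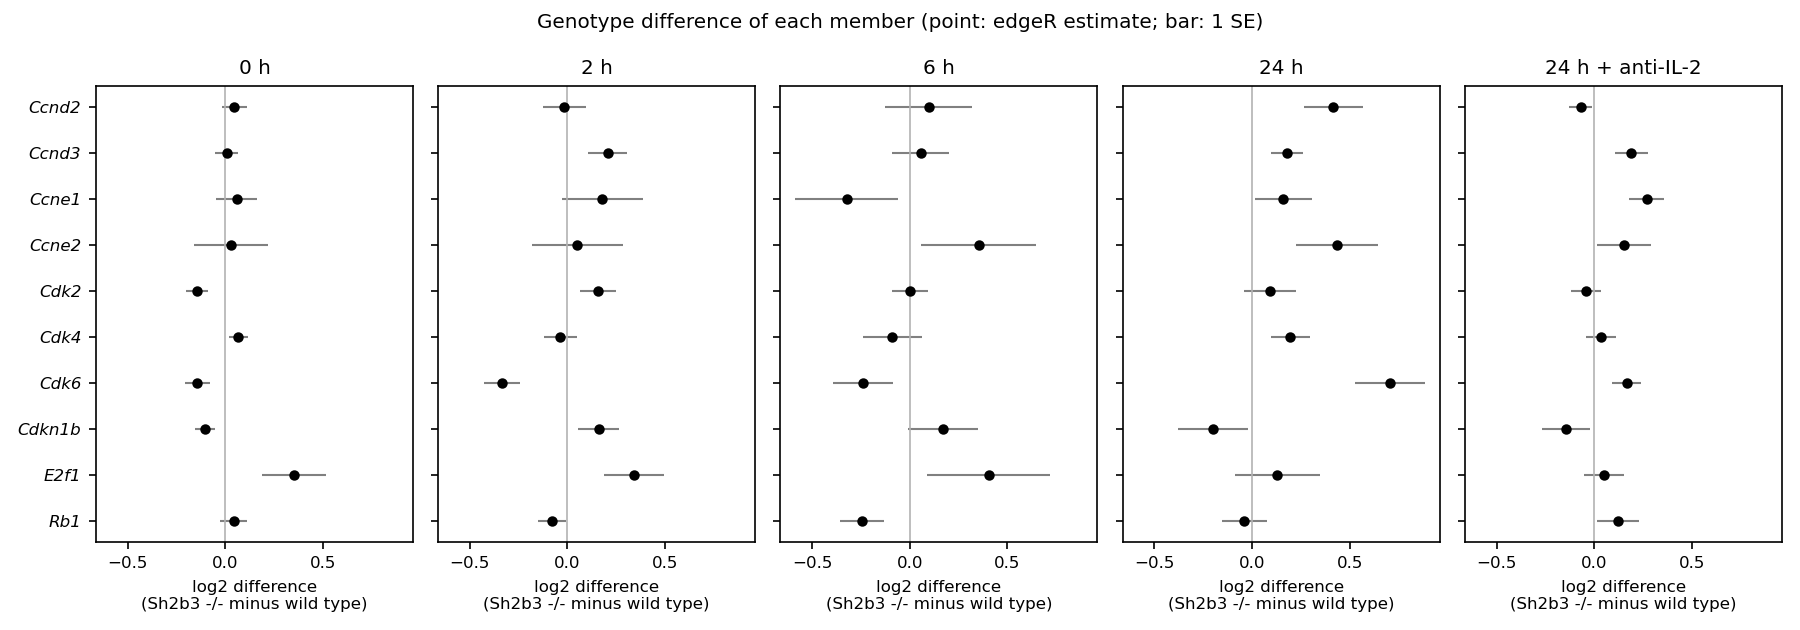
Log2 difference between knockout and wild type of each member in the 5 conditions, positive where the knockout is higher, with 1 SE. The largest is that of Cdk6 at 24 h, 0.71, and none of the 50 passed an adjusted p of 0.05 with edgeR.

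In the main fit the change with time itself differed between genotypes for Cdk6, a call lost in some of the fits below. In a fit of all 52 libraries without anti-IL-2, its rise from 0 h to 24 h was greater in knockout by 0.90 ± 0.17 log2 units (SE, adjusted p = 0.0148). It was the only 1 of the 10 members called, beside 0.140% of all genes tested (0.0761% higher). At 2 and 6 h 0 members were called by edgeR or DESeq2, with 1 member each at an unadjusted p under 0.05, beside 0.00% and 0.00% of all genes. Ccnd2 at 24 h was at 0.41 ± 0.20 (adjusted p = 0.400) and Cdk2 at 0.27 ± 0.13 (adjusted p = 0.388). The Cdk6 call held without each of the 30 stimulated libraries in turn, where it ran from 0.77 to 1.06, with adjusted p from 9.07e-05 to 0.0461. It held in set C alone (1.13, adjusted p = 0.00646) and not in set B alone (0.49, adjusted p = 0.9999). It was lost with a required change of 1.5-fold (adjusted p = 0.833) and with library number partners as a block. Relative to its partner kinase, Cdk6 per kilobase was 0.156 ± 0.0426 (SD) of Cdk4 in knockout and 0.107 ± 0.0172 in wild type at 24 h. At 0 h it was 0.146 ± 0.0247 in knockout and 0.170 ± 0.0434 in wild type. By set, the 24 h mean was 0.183 in knockout and 0.108 in wild type in set C. In set B it was 0.115 in knockout and 0.107 in wild type, with the knockout libraries (0.0967 and 0.133) on both sides of the wild-type ones.

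Within each genotype the 24 h libraries of sets B and C stood apart for several members. Wild-type Cdkn1b was at 89.3 to 89.8 CPM in set B and 217 to 265 CPM in set C, while Ccne2 was at 34.5 to 37.0 CPM in set B and 11.6 to 22.6 CPM in set C. In knockout Cdkn1b was at 58.1 to 121 CPM in set B and 137.1 to 229 CPM in set C, and Ccne2 at 29.5 to 45.1 CPM in set B and 20.2 to 34.6 CPM in set C. Set B thus held the lower inhibitor and, in wild type, the higher cyclin level, without overlap. Markers of dividing cells moved alike. Their sum was 1382 to 1730 CPM in set B and 594 to 1128 CPM in set C of the knockout, and 1483 to 1547 CPM in set B and 470 to 552 CPM in set C of wild type. Cdk6 in set C was at 188 to 232 CPM in knockout and 76.7 to 117 CPM in wild type, and in set B at 124 to 211 CPM in knockout and 141 to 155 CPM in wild type. In set C, then, the genotype with the higher Cdk6 also had the higher dividing-cell markers, without overlap of 3 libraries against 3. What share of all genes separates in this way within a set or between sets was not computed. Markers of CD4 and regulatory T cells (Cd4, Foxp3, Ctla4 and Il2ra) summed to 438 to 475 CPM in knockout and 201 to 253 CPM in wild type in set C, and to 397 to 583 CPM in knockout and 468 to 535 CPM in wild type in set B. Il2ra, the IL-2 receptor alpha chain gene that activated CD8 T cells also express, made up most of this sum, at 399 to 456 CPM in knockout and 179 to 241 CPM in wild type in set C. Cd4 was at most 0.817 CPM in knockout and 1.77 CPM in wild type in these libraries. Of the 8 T cell markers summed above at 0 h, 1 was called lower in knockout than in wild type at 24 h, beside 0.147% of all genes. Their median difference was −0.17 log2 units. They summed to 2403 to 3510 CPM in knockout and 2487 to 3757 CPM in wild type at 24 h. The part of any of these marker lists in the Cdk6 difference was not tested.

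**Figure D5:**
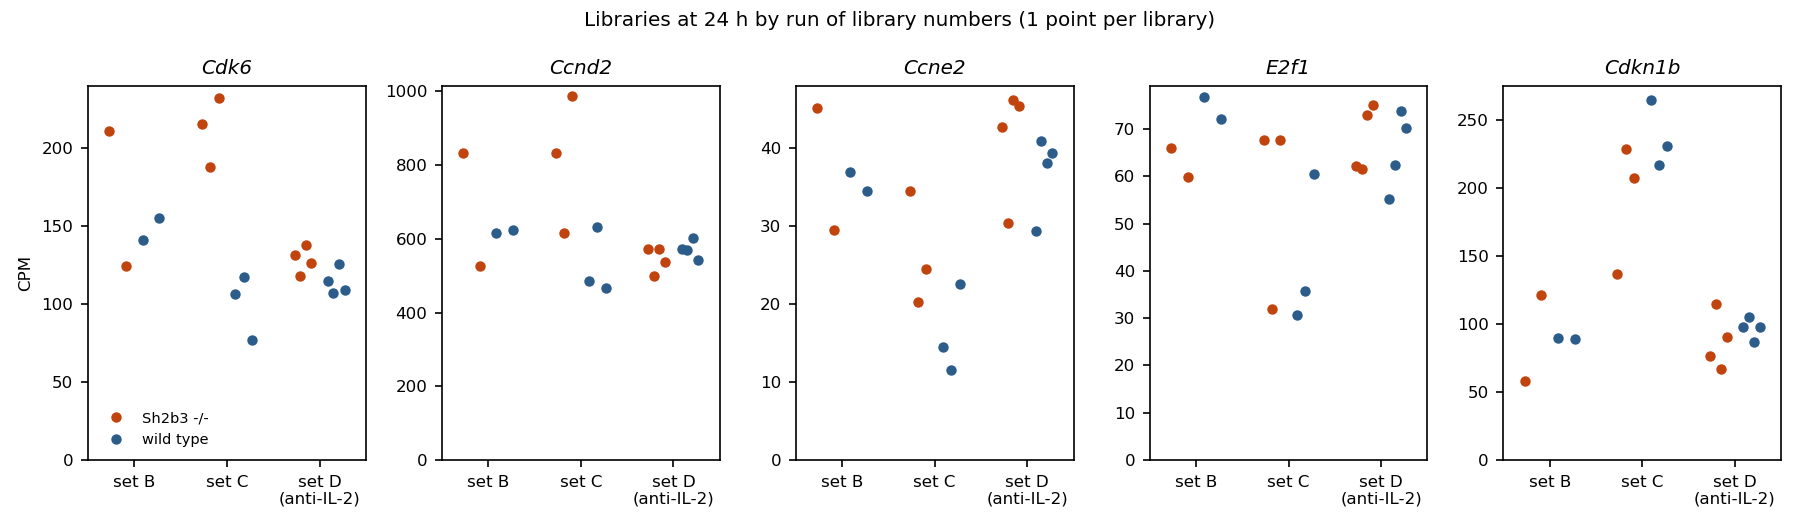
Levels (CPM, linear axis from 0) at 24 h of Cdk6, Ccnd2, Ccne2, E2f1 and Cdkn1b by library set, knockout left of wild type; sets B and C had no anti-IL-2 and set D had it, and each point is 1 library. In set C all 3 knockout libraries lie above all 3 wild-type libraries for Cdk6, and Cdkn1b is lower in sets B and D than in set C, with 1 knockout library of set C near the highest set B value.

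Blocking IL-2, the growth factor that T cells make on activation, addresses how much of the 24 h response depends on it. All libraries with the antibody belong to set D, so the antibody and the library set cannot be told apart. In knockout the antibody group had lower Cdk6, 1 of 10 members called, beside 5.27% of all genes (2.37% higher, 2.90% lower). In wild type it had lower Ccnd3, again 1 of 10, beside 4.40% (1.80% higher, 2.60% lower). No member was called higher. For E2f1, the E cyclins, Cdk2 and Cdk4 the differences lay between 0.11 (Cdk4) and 0.42 (Ccne2) in knockout and between 0.08 (Ccne1) and 0.62 (Ccne2) in wild type, none called.

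Cdk6 in knockout had 118, 126, 131.5 and 137.4 CPM with anti-IL-2 and 124, 188, 211, 215 and 232 CPM without, a difference of −0.60 ± 0.15 log2 units (adjusted p = 0.0357). The antibody libraries lay below 4 of the 5 libraries without it and on both sides of the remaining one. In wild type Cdk6 had 107, 109, 115 and 126 CPM with anti-IL-2 and 76.7, 106, 117, 141 and 155 CPM without (−0.06 ± 0.16, adjusted p = 0.877). Knockout against wild type with anti-IL-2 gave 0.17 ± 0.07 (adjusted p = 0.490). The knockout call was lost without any 1 of the 4 antibody libraries (−0.61, −0.56, −0.63 and −0.59 without replicates 1 to 4), without knockout replicate 1 (−0.55) or 3 (−0.52) at 24 h, and against set B alone (−0.38). Against set C alone it was −0.74 (adjusted p = 0.000643). Il2ra was lower with the antibody in knockout too, at 180 to 219 CPM with anti-IL-2 and 336 to 522 CPM without. It made up most of the CD4 and regulatory T cell marker sum, 195 to 237 CPM with and 397 to 583 CPM without. Cd4 itself was at most 0.676 CPM with and 0.817 CPM without the antibody in knockout. The part of these markers in the Cdk6 difference was not tested. In wild type the difference was −0.37 (adjusted p = 0.00697) against set B alone and 0.16 against set C alone.

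The D cyclins had negative estimates with the antibody except for Ccnd2 in wild type. Ccnd3 in knockout had 119, 136.8, 141 and 164 CPM with anti-IL-2 and 158, 176, 184, 187 and 196 CPM without (−0.36 ± 0.11, adjusted p = 0.0653). In wild type it had 119, 120.2, 122 and 129.9 CPM with anti-IL-2 and 142, 154, 159, 164 and 171 CPM without (−0.37 ± 0.08, adjusted p = 0.0323). All wild-type libraries with the antibody lay below all those without, as for 6.47% of genes with 4 CPM or more in either group. The wild-type call was lost without any 1 of the 4 antibody libraries (−0.35, −0.36, −0.39 and −0.36 without replicates 1 to 4), without wild-type replicate 2 (−0.34) or 3 (−0.36) at 24 h, and with no filter on low counts (−0.36). It held against set B alone (−0.34) and set C alone (−0.41). Ccnd2 had 499, 538, 572 and 573 CPM with the antibody in knockout, at −0.48 ± 0.15 (adjusted p = 0.0886), and 542, 571, 573 and 602 CPM in wild type, at 0.02 ± 0.11 (adjusted p = 0.953). DESeq2 called Ccnd2 (−0.47, adjusted p = 0.0380) and Ccnd3 (−0.36, adjusted p = 0.0237) in knockout. Both were called there by edgeR without knockout replicate 5 at 24 h (−0.58 for Ccnd2 and −0.41 for Ccnd3). Ccnd2 was called without knockout replicate 2 at 24 h (−0.54), and Ccnd3 without antibody replicate 3 (−0.45).

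For the E cyclins, Cdk2, Cdk4, E2f1 and Cdkn1b the value depended on which 24 h set the antibody libraries were set against, a split made after the data were seen. Cdkn1b, the inhibitor, was at 87.3 ± 20.5 CPM with the antibody and 150.4 ± 68.8 CPM without in knockout (−0.79 ± 0.31, adjusted p = 0.163). In wild type it was at 96.7 ± 7.62 CPM with and 178 ± 82.9 CPM without (−0.89 ± 0.30, adjusted p = 0.116). Against set C alone it was called in knockout (−1.14) and wild type (−1.33), and against set B alone it was −0.03 in knockout and 0.12 in wild type, uncalled. Leaving out 1 set B library at 24 h also made the call, at −0.995 without knockout replicate 4 and at −1.06 and −1.06 without wild-type replicates 4 and 5. In wild type Ccne1 (0.36), Ccne2 (1.16), Cdk2 (0.65), Cdk4 (0.48) and E2f1 (0.60) were called higher against set C alone and not against set B alone, in fits that called 28.7% and 11.2% of all genes, beside 4.40% with both sets. In knockout the fits called 11.8% against set C alone and 5.73% against set B alone. The dividing-cell markers summed to 1098 to 1603 CPM with the antibody in knockout and 754 to 1191 CPM in wild type, and their part in these differences was not tested.

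Knockout and wild type with anti-IL-2 differed most at Ccne1, which had 74.1, 77.2, 77.2 and 82.9 CPM in knockout and 54.0, 66.3, 68.8 and 69.3 CPM in wild type. All knockout libraries were above all wild-type ones, as for 2.75% of genes with 4 CPM or more in either genotype, and the difference was 0.27 ± 0.09 (adjusted p = 0.318). Ccnd3 was at 0.19 ± 0.08 and Cdk6 at 0.17 ± 0.07 log2 units, neither called. The test of whether the antibody difference itself depended on genotype called 0 of 10 members with edgeR and 0 with DESeq2, 2 at an unadjusted p under 0.05, beside 0.00% of all genes. Those 2 were Ccnd2, at −0.49 ± 0.19 log2 units, and Cdk6, at −0.53 ± 0.24 (adjusted p = 0.9999 each). Against set C alone the Cdk6 value was −0.90 (adjusted p = 0.0250), and against set B alone −0.03. Of the wider pathway genes, Max, the partner of MYC, was the only one called in a single antibody comparison, at −0.34 ± 0.09 (adjusted p = 0.0442) in knockout, and of the E2F targets only Ung was called, at 0.56 ± 0.12 (adjusted p = 0.0261) in wild type.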

How the data were processed

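The authors deposited 1 table of read counts per gene, raw whole numbers for 60 libraries; per the submitters' processing notes, FastQC, STAR 2.7.9a, SAMtools, Picard and featureCounts 2.0.1 (Subread) and the build GRCm39 were used. Strandedness, and which of the 2 named RNA kits (Qiagen or Zymo) served which library, are not given in the sources used here. Genes with a symbol held 99.6% of counts.

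Members and gene lists were chosen with earlier results of these data known. Members were described in every group; of the wider pathway list the 4 called genes with the smallest adjusted p per comparison were named, and for likeness the 3 genes with the highest correlation. Genes were filtered with filterByExpr (minimum count 10), scaled by TMM and tested with edgeR 4.0.16 (quasi-likelihood F test, R 4.3.3, limma 3.58.1), on the whole table, with Benjamini-Hochberg adjustment and calls at 0.05. Fits with more than 1 library set had a set term; those with anti-IL-2 could not, since set D holds the antibody alone. CPM are shares of a library. RPKM used union exon lengths of GENCODE M21 (GRCm38), and promoters came from RefSeq (GRCm38.p6). Python 3.11.15, numpy 2.4.6, pandas 2.3.3 and matplotlib 3.10.9 served the rest.

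Alternatives were DESeq2 1.42.0, its size factors, no count filter, a required change of 1.5-fold, no set term, library number partners as a replicate block and, left out in turn, each library of the groups of 4 or 5 and knockout replicate 10 at 0 h. Splitting time, interaction and antibody comparisons by set, and leaving out 3 knockout libraries over time, were chosen after the data were seen. On simulated counts with 100 genes changed by 1 log2 unit, the comparison of genotypes at 24 h recovered 64% of them among 12906 genes tested.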

Additional observations from a re-analysis of the deposited data

Results flagged for a closer look

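In 4 of the 80 pairs of a member and a group of 4 or 5 libraries, 1 library lay far from the others by the gap relative to the range, about the 1 in 20 that chance gives. Ccne1 in knockout at 2 h was 13.4 CPM in replicate 5, against 5.91 to 7.99 CPM in the other 4. Ccne1 in knockout at 6 h was 3.84 CPM in replicate 3, against 10.3 to 12.7 CPM in the others. E2f1 in knockout at 6 h was 10.6 CPM in replicate 2, against 4.83 to 6.28 CPM. E2f1 in knockout at 24 h was 31.9 CPM in replicate 2, against 59.9 to 67.7 CPM. Cdk6 rose more between 0 and 24 h in knockout than in wild type, by 0.90 log2 units (edgeR quasi-likelihood test, adjusted p = 0.0148). It was the only member whose response differed between genotypes by the test of the difference itself. The call was lost with library number partners as a replicate block, in set B alone and with a required change of 1.5-fold.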

How the results depend on the processing

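Of 4040 member values recomputed under the alternatives, 3932 kept their side of the threshold, 58 lost the call and 49 gained one. In 1 a value called in the main fit changed sign: Cdkn1b at 24 h in wild type, 0.0505 within set C alone. Changes of sign between uncalled values were not counted apart and lie among the 3932. Counts of members called moved as follows, and the cause was not tested beyond what each alternative changes. For knockout against wild type at 24 h (0 called) they were 2 with no filter on low counts, 1 with DESeq2 and 1 within set C alone, and 0 to 2 with single libraries left out. Of all genes, 1.49%, 1.80% and 0.456% were called with no filter, with DESeq2 and within set C alone. For anti-IL-2 in knockout (1) they were 2 with no filter, 3 with DESeq2, 0 with a required 1.5-fold change, 0 against set B alone, 4 against set C alone, and 0 to 3 with libraries left out. Of all genes, 3.48%, 9.22% and 0.351% were called with no filter, DESeq2 and the 1.5-fold change. Against sets B and C alone 5.73% and 11.8% were called. For anti-IL-2 in wild type (1) they were 0 with no filter, 0 with 1.5-fold required, 2 against set B, 7 against set C, and 0 to 2 with libraries left out. Of all genes, 2.62% were called there with no filter, 0.105% with 1.5-fold required, 11.2% against set B and 28.7% against set C. The antibody interaction (0) gave 1 against set C alone, beside 0.106% of all genes. Requiring 1.5-fold gave 3 at 2 h in knockout, beside 20.4% of all genes. In wild type it gave 3, 2 and 5 at 2, 6 and 24 h, beside 22.8%, 18.2% and 28.4%. Between 6 and 24 h it gave 3 in wild type, beside 7.01%. The 6 h count in knockout was 3 to 5 with libraries left out. The Cdk6 difference of genotypes over time (1 called at 24 h) gave 0 with 1.5-fold required and 0 in set B alone. Library number partners correlated at a median of 0.177 in set A, 0.023 in set B and 0.0265 in set C. Of these, 20 of 30, 0 of 4 and 2 of 6 pairs were over 0.1. For pairs that were not partners the medians were −0.0398, −0.0230 and 0.00347, with 20 of 120, 0 of 4 and 2 of 18 over 0.1. Set B has 2 libraries per group, whose deviations from their mean mirror each other. Its partner and other correlations are therefore equal and opposite by construction. In set A partners thus deviated together more often than other pairs. The labels do not tie the numbers to animals or days, and the main fits did not pair them. The independence of these libraries is thus not established. With number partners as a replicate block the 24 h interaction gave 0 members (Cdk6 0.75, adjusted p = 0.154). Counts over time with this block were 7, 3 and 8 in knockout and 8, 5 and 8 in wild type at 2, 6 and 24 h. Of all genes these fits called 49.8%, 43.6% and 60.0% in knockout and 51.9%, 46.6% and 57.5% in wild type.

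Counts over all genes were more mobile: knockout against wild type at 24 h gave 48 with edgeR, 232 with DESeq2, 362 with no filter, and 8 to 361 with libraries left out. At 2 h it gave 8, 122 with DESeq2, 230 with no filter, and 3 to 63. At 0 h it gave 81, 163 with DESeq2, 477 with no filter and 1.69 times as many without knockout replicate 10, the 1 library of this comparison left out, and at 6 h 4, 28 with DESeq2 and 5 with no filter. With anti-IL-2 it gave 47, 141 with DESeq2, 191 with no filter, and 10 to 76 with libraries left out. The antibody comparison gave 721 in knockout (1261 with DESeq2, 264 to 1092 with libraries left out) and 584 in wild type (1344 with DESeq2, 145 to 1223 with libraries left out). The 24 h interaction gave 22, 81 with DESeq2, 281 with no filter, and 11 to 69 with stimulated libraries left out. The lowest read numbers in a library were 29 for Ccne2 and 39 for E2f1.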
